A study of Mus musculus with 30 samples.

Results

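Interleukin-18 (IL-18) signalling was followed through 4 transcripts, which were read by gene symbol from the count table: Il18, the ligand; Il18r1 and Il18rap, the chains of its receptor; and Il18bp, its secreted decoy receptor. All 4 were found among the 24552 genes of the table, and all 4 passed the low-count filter that left 15482 genes for testing. The samples were whole tumours grown under the skin of female C57BL/6J mice, injected at 10 weeks of age with MC38 cells, a mouse line of colon carcinoma origin. Mice were dosed once, intravenously, when tumours had reached 200 to 300 cubic millimetres. The drug groups received mXTX301, a masked mouse surrogate of interleukin-12 (IL-12), at 0.39 mg/kg, or an unmasked positive control molecule at 0.03 mg/kg, and the control group received vehicle. Tumours were taken on day 4 or day 7, with 5 mice in each of the 6 groups. All mice carried the same line and no genotype differed between groups. The doses of the 2 drugs differed, so any contrast between them is a contrast of dosed regimens.

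IL-18 is made as an inactive precursor, largely by macrophages, dendritic cells and barrier epithelia such as skin, and is cut to its active form by caspase-1 in inflammasomes. The active cytokine binds the chain encoded by Il18r1, and the accessory chain encoded by Il18rap is then recruited to start signalling through the adaptor MyD88. IL-12 and IL-18 act together to drive production of interferon-gamma by T cells and natural killer (NK) cells, and IL-12 is known to induce IL-18 receptor chains on these cells. The binding protein encoded by Il18bp captures the free cytokine with high affinity and is itself a known target gene of interferon-gamma. All values here are transcript levels; the cleaved cytokine, the receptor at the cell surface and the secreted decoy were not measured.

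In GENCODE M21 coordinates on GRCm38, the build named mm10 in the submitters' processing notes, Il18 (gene 16173) spans chr9:50554827-50581840 on the plus strand. Il18r1 (gene 16182) spans chr1:40465552-40500854 and Il18rap (gene 16174) spans chr1:40515362-40551705, both on the plus strand. These neighbours are 14507 bases apart and end a cluster of receptor genes of the interleukin-1 family in the order Il1r2, Il1r1, Il1rl2, Il1rl1, Il18r1 and Il18rap. Il1rl1, which encodes the receptor of interleukin-33, ends 136 bases before the annotated start of Il18r1. Il18bp (gene 16068) spans chr7:102014885-102018690 on the minus strand.

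The RefSeq windows from 250 bases before to 50 bases after each start (GRCm38.p6) were searched on both strands for 3 motifs linked to interferon or T helper 1 regulation. The gamma-activated site TTCNNNGAA was in 8.30% of all 32851 windows. The interferon response core GAAANNGAA was in 8.56%, and the T-box core AGGTGTGA in 1.28%. Il18r1 has 3 such windows and the other genes have 1 each. Only the third Il18r1 window held a match, and it held 2 gamma-activated sites, which do not overlap. Of all windows, 0.457% held 2 or more, a share per window, and Il18r1 had more windows than the other genes. All 250 bases before the RefSeq start of Il18bp lie in its own GENCODE exons. The bases before its outermost GENCODE start were not searched. Both sites, the only matches among the 4 genes, are shown with the 9 matching bases in capitals, 10 bases on either side, and the plus strand written 5′ to 3′.
Il18r1 site at chr1:40465777-40465805: tcggggttagTTCTGGGAActgtggagct
Il18r1 site at chr1:40465844-40465872: agtacaggtcTTCCCAGAActgaaagctt
The sites run from position -219 to -211 and from -152 to -144 before the third start. The first lies in an exon of Il18r1 in GENCODE, and the second lies outside annotated exons. A match is a description of these letters only, and factor binding was not measured.

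Total counts per library ran from 48301869 to 85195518. Levels are given as CPM, the counts scaled to a common library total after TMM factors, which correct totals for composition. Tests are edgeR quasi-likelihood F tests over all 15482 genes with Benjamini-Hochberg adjustment, and a gene was called at an adjusted p under 0.05. The 4 drug contrasts share their vehicle groups within a day. Markers of intestinal epithelium were low in these tumours. Cdx2, a transcription factor of gut epithelium, had no count in any library, and Epcam, an epithelial surface protein, had a median of 0.123 CPM. Cdh1, the highest of that list, had a median of 2.27 CPM and reached 10.7 CPM. A separate set of 12 libraries, 1 to 3 in each group, carried epidermal keratins, with skin marker sums of up to 945 CPM in a group whose lowest library had 5.58 CPM. They stood apart by a gap in the mean log2 level of 12 skin genes, from -2.81 to -0.82, and are called skin-rich below.

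The ligand rose in 3 of the 4 drug groups. Il18 was a low transcript in vehicle tumours, at 1.34, 1.05, 1.40, 1.17 and 1.11 CPM on day 4, or 64 to 76 reads per library. On day 4 the mXTX301 tumours had 1.59, 3.66, 3.25, 2.63 and 3.29 CPM. All 5 lay above every vehicle tumour, and the rise was 2.37-fold (log2 1.25, SE 0.27, edgeR adjusted p = 0.000976). In bulk tissue, more cells of a type and more RNA per cell cannot be told apart. The unmasked control tumours of day 4 had 1.47, 1.52, 1.96, 1.23 and 2.27 CPM, which overlapped vehicle. Their difference was 1.39-fold (95% interval 0.953 to 2.03, edgeR adjusted p = 0.203) and was not called.

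On day 7, Il18 was at 1.45, 1.60, 1.57, 1.41 and 1.12 CPM in vehicle tumours and at 2.83, 2.41, 2.85, 5.22 and 5.56 CPM after mXTX301. The groups did not overlap, and the rise was 2.63-fold (log2 1.39, SE 0.27, edgeR adjusted p = 0.000128). The unmasked control tumours had 1.30, 3.32, 3.43, 3.33 and 3.81 CPM. Replicate 1 sat within the vehicle range while the other 4 were at least 3.32 CPM, and the group rose 2.12-fold (log2 1.08, SE 0.27, edgeR adjusted p = 0.00168). This call was lost without the 12 skin-rich libraries, which leaves replicates 1 and 4 of that group (log2 0.68, adjusted p = 0.312). In the same 5 tumours the sum of 9 macrophage markers ran from 1135 CPM in the lowest to 3443 CPM in the highest, against 374 to 1011 CPM in vehicle. The part of macrophage content in the Il18 values was not tested.

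The ligand-binding receptor chain responded most. Il18r1 was nearly silent in vehicle tumours, at 0.376, 0.290, 0.716, 0.585 and 0.697 CPM on day 4, from 19 to 40 reads per library. The mXTX301 tumours of day 4 had 3.22, 3.37, 13.8, 2.92 and 4.76 CPM, all above vehicle, and the rise was 10.5-fold (log2 3.40, SE 0.49, edgeR adjusted p = 1.72e-05). Replicate 3, the only skin-rich library of its group, stood far above the rest, and without it the log2 rise was 2.73 (adjusted p = 6.04e-05). The unmasked control tumours had 6.64, 5.96, 3.08, 4.04 and 6.90 CPM, a 9.98-fold rise (log2 3.32, SE 0.49, edgeR adjusted p = 2.75e-05). Of all 15482 genes, 27 rose more than Il18r1 after mXTX301 on day 4 and 30 rose more after the unmasked control.

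On day 7, Il18r1 was at 0.846, 0.862, 0.327, 0.243 and 0.945 CPM in vehicle tumours. It reached 7.48, 5.84, 8.69, 15.2 and 8.12 CPM after mXTX301, a 13.9-fold rise (log2 3.80, SE 0.49, edgeR adjusted p = 9.31e-07). The unmasked control tumours had 6.23, 25.1, 8.83, 18.2 and 19.3 CPM, a 23.9-fold rise (95% interval 11.7 to 48.9, edgeR adjusted p = 1.39e-07). No drug-treated tumour of either day overlapped a vehicle tumour of the same day. On day 7, 71 genes rose more than Il18r1 after mXTX301 and 23 rose more after the unmasked control. The sum of 10 T cell markers moved in the same direction: it was 29.6 to 43.5 CPM in the day 7 vehicle group, 105 to 227 CPM after mXTX301 and 93.0 to 275 CPM after the unmasked control. Thy1, never below 21.2 CPM in any library, made up much of the vehicle sums. The median log2 rise of the 10 markers on day 7 was 3.07 after mXTX301 and 3.54 after the unmasked control, beside 3.80 and 4.58 for Il18r1. All 10 were called higher in both day 7 contrasts, and 9 after mXTX301 and 8 after the unmasked control on day 4. Of all genes, 25.7% and 23.2% were called higher on day 7, and 16.2% and 11.6% on day 4. None of the 10 was at 0 in any library. The part of T cell content in the Il18r1 values was not tested.

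The accessory chain was more abundant than Il18r1 in vehicle tumours, and its fold changes were smaller. Il18rap stood at 13, 9.14, 19.0, 29.5 and 21.3 CPM in the vehicle tumours of day 4, and 56.9, 20.7, 35.9, 38.5 and 51.7 CPM after mXTX301. One mXTX301 tumour, replicate 2, fell within the vehicle range, and the group rose 2.22-fold (log2 1.15, SE 0.33, edgeR adjusted p = 0.00890). The unmasked control tumours had 60.6, 56.0, 40.5, 50.6 and 66.5 CPM, all above vehicle, a 2.98-fold rise (log2 1.58, SE 0.33, edgeR adjusted p = 0.00121).

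On day 7, Il18rap was at 6.11, 24.0, 16.5, 26.6 and 21.8 CPM in vehicle tumours. It was at 50.1, 49.8, 39.9, 49.3 and 86.1 CPM after mXTX301, which was 2.90-fold higher (log2 1.54, SE 0.33, edgeR adjusted p = 0.000451). The unmasked control gave 63.9, 63.4, 34.0, 50.1 and 59.4 CPM, 2.85-fold higher (log2 1.51, SE 0.33, edgeR adjusted p = 0.000590). Neither drug group overlapped vehicle on day 7. The 4 fold changes of this chain lay between 2.22 and 2.98, whereas those of Il18r1 lay between 9.98 and 23.9.

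The decoy receptor rose in every drug group. Il18bp was at 14.5, 11.3, 15.9, 13.7 and 12.1 CPM in the vehicle tumours of day 4. It was at 33.2, 33.3, 59.5, 36.7 and 43.5 CPM after mXTX301, a 3.05-fold rise (log2 1.61, SE 0.20, edgeR adjusted p = 2.41e-06). It was at 49.1, 46.0, 33.4, 38.7 and 47.2 CPM after the unmasked control, a 3.17-fold rise (log2 1.66, SE 0.20, edgeR adjusted p = 1.49e-06). All treated tumours lay more than 2-fold above the highest vehicle tumour.

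On day 7 the vehicle tumours had 11.2, 8.84, 11.7, 12.5 and 11.5 CPM of Il18bp. After mXTX301 the values were 56.4, 41.2, 58.7, 85.9 and 60.9 CPM, a 5.44-fold rise (log2 2.44, SE 0.20, edgeR adjusted p = 9.43e-10). After the unmasked control they were 39.7, 85.9, 52.1, 80.5 and 67.3 CPM, a 5.85-fold rise (log2 2.55, SE 0.20, edgeR adjusted p = 7.31e-10). The lowest treated tumour of day 7 was therefore above every vehicle tumour, as on day 4. Replicate 1 of the unmasked control, the lowest of its group for Il18bp, was also the lowest for Il18 and Il18r1, but had the highest Il18rap level of that group.

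**Figure D1:**
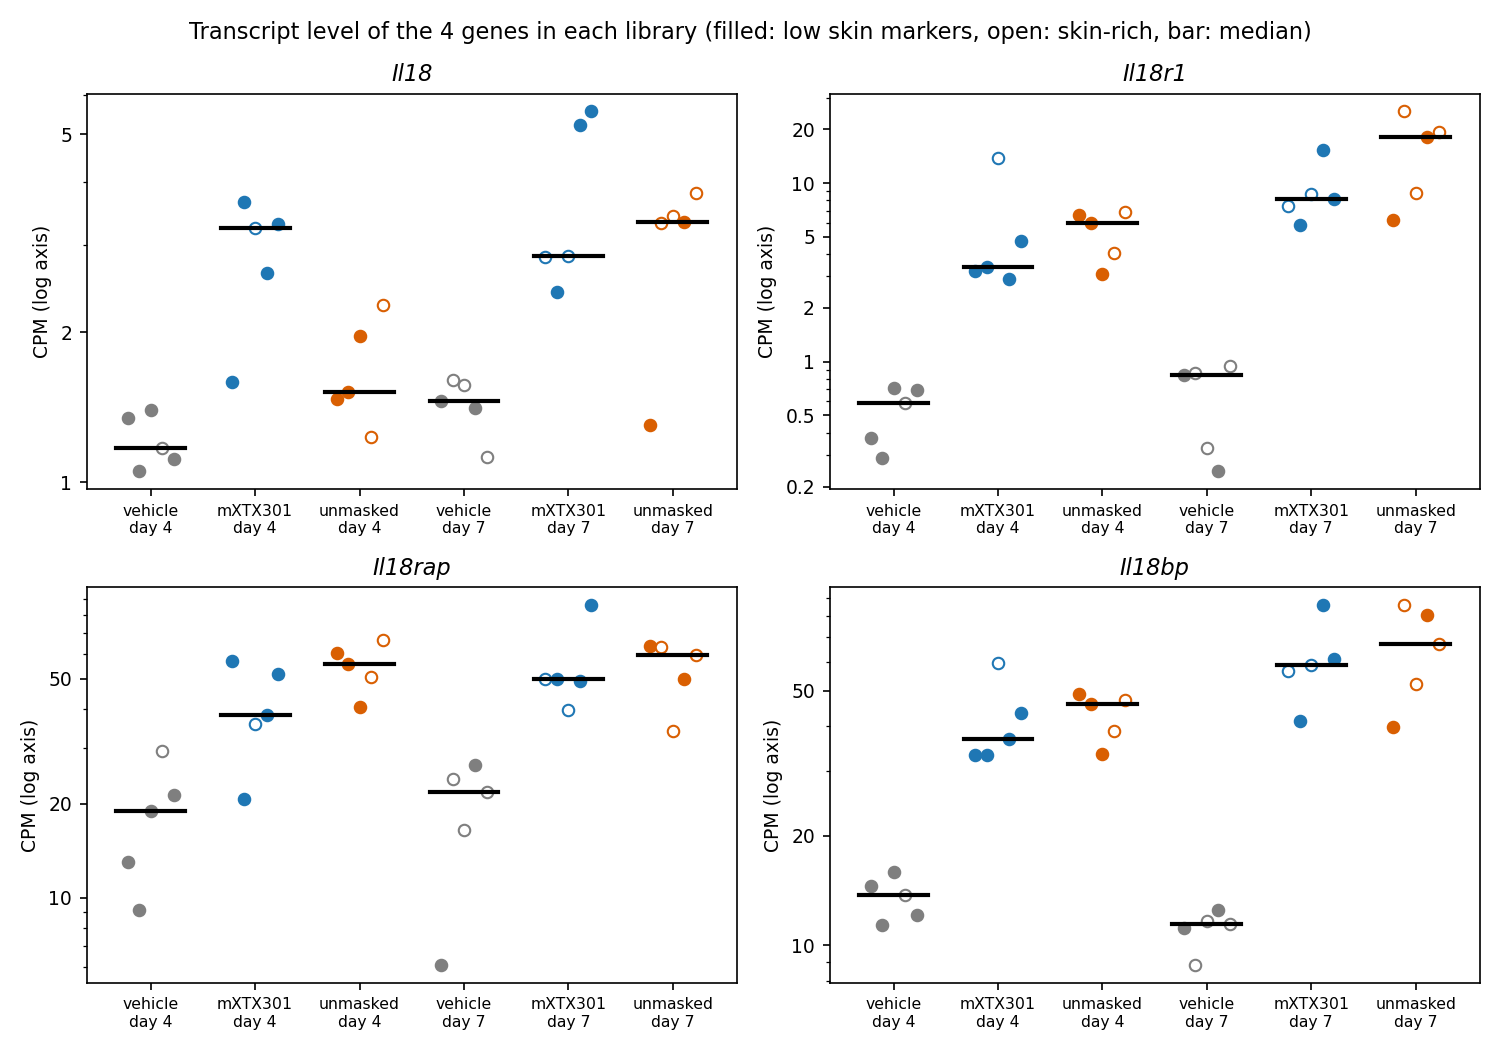
CPM of Il18, Il18r1, Il18rap and Il18bp in each of the 30 libraries on log axes, by treatment and day; each point is 1 tumour, the bar is the group median, and open points are the 12 skin-rich libraries. Il18r1 and Il18bp of treated tumours lie wholly above vehicle of the same day, while Il18 overlaps vehicle in both unmasked control groups and Il18rap in the day 4 mXTX301 group.

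Counted against all genes, 4 of 4 members were called higher after mXTX301 on day 4, where 16.2% of tested genes were called higher and 16% lower. On day 7 it was again 4 of 4, against 25.7% of genes higher and 22.7% lower. After the unmasked control, 3 of 4 were called higher on day 4, against 11.6% of genes higher and 10.8% lower, and 4 of 4 on day 7, against 23.2% and 21.8%. Every treated tumour lay above every vehicle tumour for 3 members after mXTX301 on day 4 (9.29% of genes) and for 4 on day 7 (16.5%). The same held for 3 members after the unmasked control on day 4 (7.3%) and for 3 on day 7 (12.5%). The median log2 change of all genes stayed between -0.011 and 0.016 in these contrasts. The members and the gene lists below were chosen with earlier results of these data known. Their counts beside the shares of all genes are a description and not a test. Leaving out any 1 library changed none of the 16 calls or directions.

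**Figure D2:**
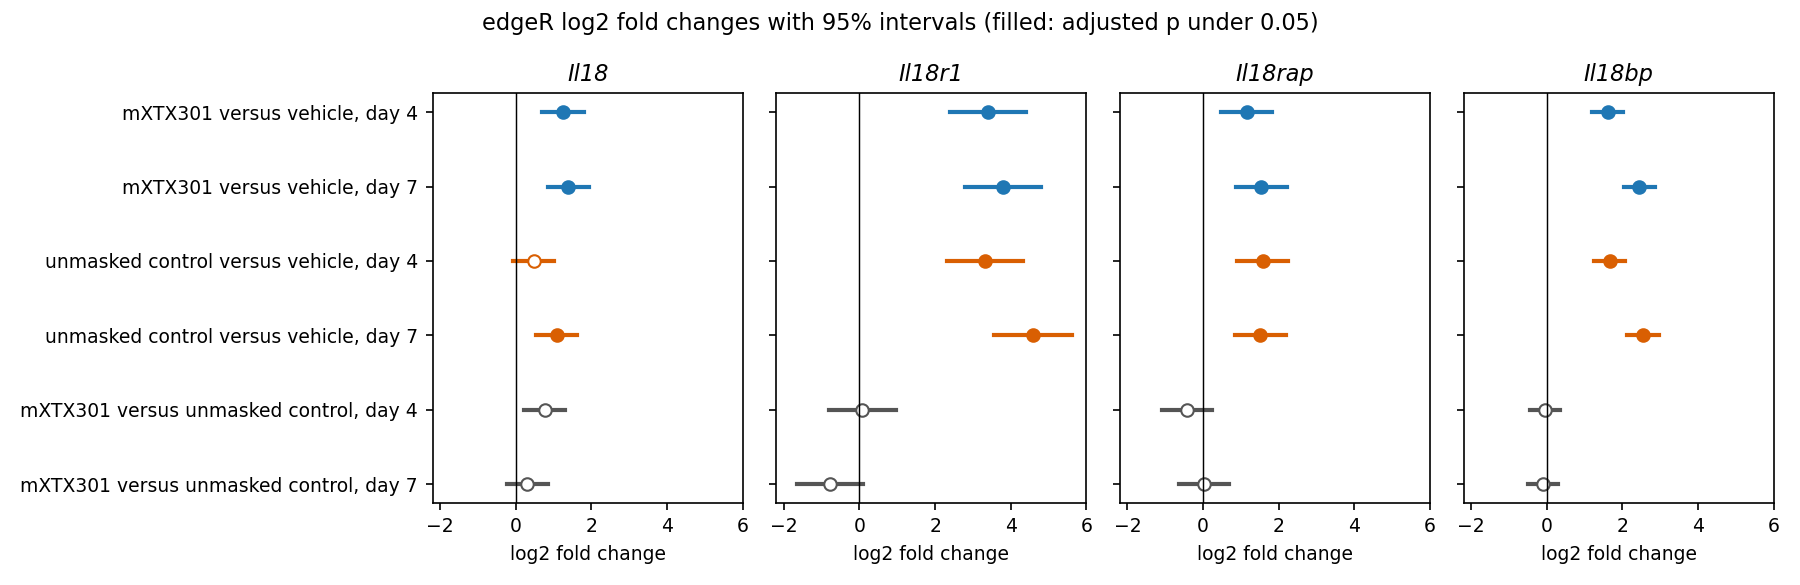
Log2 fold change (point) with its 95% interval (line) for each gene in 6 contrasts, from the edgeR fit to all 30 libraries; filled points passed an adjusted p under 0.05. Il18r1 shows the largest rises, 3.32 to 4.58 on the log2 scale, and no contrast of mXTX301 with the unmasked control is filled.

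Compared per kilobase of exon, the order of levels in the vehicle tumours of day 4 was Il18bp at 4.47, Il18rap at 2.72, Il18 at 1.18 and Il18r1 at 0.111 CPM per kilobase. In the unmasked control tumours of day 7 it was Il18bp at 21.5, Il18rap at 8.02, Il18r1 at 3.23 and Il18 at 2.95 CPM per kilobase. Il18r1 thus stood below the ligand in vehicle tumours and beside it after 7 days of the unmasked control. After mXTX301 on day 7 the ligand, at 3.66, remained above Il18r1, at 1.88 CPM per kilobase.

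Ordered by mean CPM over the 6 groups, Il18r1 showed a single step between neighbours whose libraries did not overlap, from vehicle day 7 at 0.645 ± 0.332 CPM to the unmasked control day 4 at 5.32 ± 1.68 CPM (SD, n = 5). Above that step came mXTX301 day 4 at 5.61 ± 4.62, mXTX301 day 7 at 9.07 ± 3.60 and the unmasked control day 7 at 15.5 ± 7.83 CPM (SD, n = 5), each overlapping the next. Il18bp had its only such step between vehicle day 4, at 13.5 ± 1.84 CPM, and mXTX301 day 4, at 41.3 ± 11 CPM (SD, n = 5). For Il18 and Il18rap every group overlapped its neighbour in this order. Il18 ran from 1.22 ± 0.15 CPM in vehicle day 4 to 3.77 ± 1.49 CPM in mXTX301 day 7, and Il18rap from 18.4 ± 7.85 to 55.0 ± 17.9 CPM in the same groups (SD, n = 5).

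Whether the decoy rose more than the ligand was read from the ratio of Il18bp to Il18 CPM within each library, and tested on the log2 ratio. The median ratio was 10.9 in vehicle tumours on day 4 and 7.68 on day 7. After the unmasked control it was 30.3 on day 4 and 24.2 on day 7. Shifts of a ratio are given here and below as differences of the mean log2 ratio, written as folds, and not as changes of the medians. After the unmasked control they were 2.32-fold and 2.85-fold, with every treated tumour above every vehicle tumour (2-sided exact permutation test of 5 against 5, adjusted p = 0.0190 for both, over 12 ratio tests). After mXTX301 the median was 14.0 on day 4 and 17.1 on day 7. The day 7 shift was 2.16-fold (exact permutation adjusted p = 0.0190). The day 4 shift was 1.32-fold and was not called (95% interval of the log2 difference -0.23 to 0.95, exact permutation adjusted p = 0.127). Replicate 2 of that mXTX301 group, the tumour with the most Il18, had a ratio of 9.11, below the vehicle range of 10.8 to 11.8. Without it every treated tumour lay above vehicle, at 0.57 on the log2 scale (exact permutation adjusted p = 0.0159). That pass rests on leaving out the 1 tumour that overlapped. Over all 10 libraries left out in turn the log2 difference ran from 0.27 to 0.57 (exact permutation adjusted p up to 0.208).

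The transcripts of the receptor chains drew closer in level over the whole tumour. Whether both come from the same cells was not tested. The median ratio of Il18rap to Il18r1 CPM was 31.6 in vehicle tumours on day 4 and 27.8 on day 7. It was 10.9 and 6.70 after mXTX301, and 9.64 and 3.07 after the unmasked control, on days 4 and 7. On the log2 scale the ratio fell by 1.94 and 1.59 on day 4 after mXTX301 and the unmasked control (exact permutation adjusted p = 0.0190 for both). On day 7 it fell by 2.21 after mXTX301 (exact permutation adjusted p = 0.0408) and by 2.89 after the unmasked control (exact permutation adjusted p = 0.0317). The vehicle group of day 7 was the widest, from 7.23 to 109, and its replicate 1 overlapped both drug groups. The mXTX301 call of day 7 was narrowly lost without any 1 of 7 libraries: vehicle replicates 2, 3, 4 and 5, and mXTX301 replicates 1, 3 and 4 (exact permutation adjusted p up to 0.0595). Over all 10 libraries left out in turn the log2 difference stayed between -2.71 and -1.77.

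**Figure D3:**
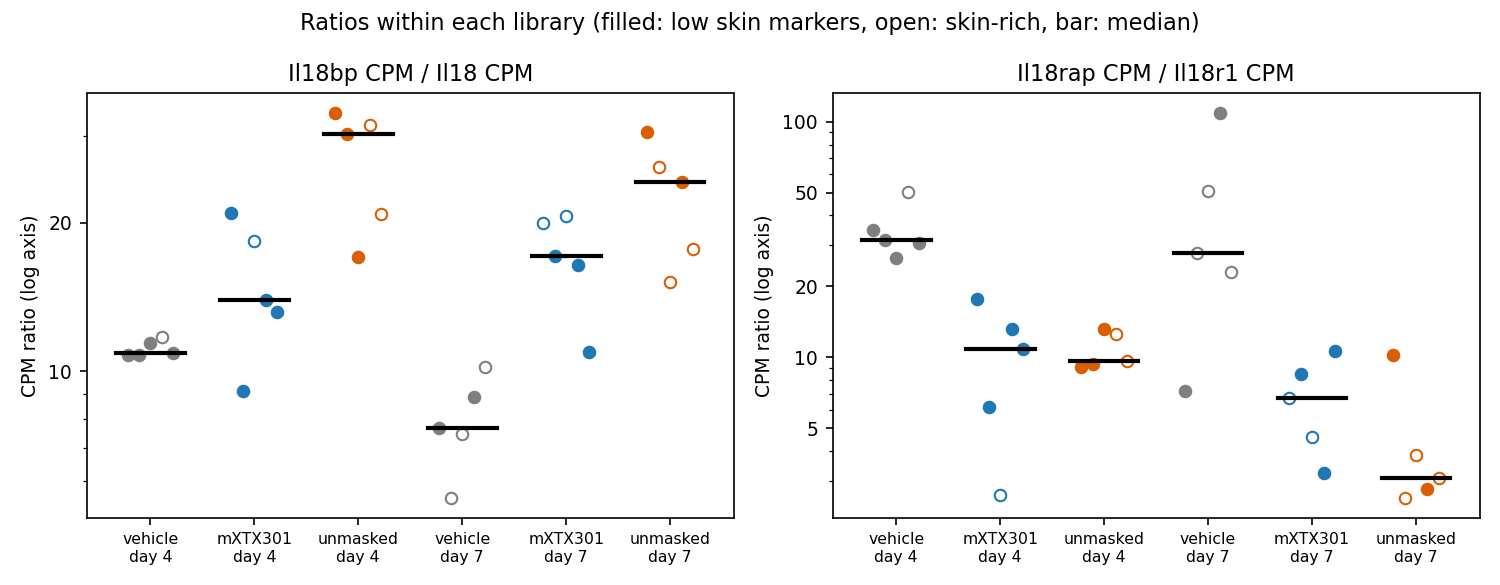
Ratio of Il18bp to Il18 CPM (left) and of Il18rap to Il18r1 CPM (right) in each library, on log axes, by treatment and day; bars are group medians and open points are skin-rich libraries. The median decoy to ligand ratio is 10.9 in vehicle and 30.3 in unmasked control tumours on day 4, and the receptor chain ratio is lowest, with a median of 3.07, in the unmasked control tumours of day 7.

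Between the drugs, edgeR called 0 of 4 members on either day, as did DESeq2; at an unadjusted p under 0.05 only Il18 passed, on day 4. edgeR called 0 of 15482 genes in this contrast on day 4 (percent called 0), with 2092 genes at an unadjusted p under 0.05, and DESeq2 called 24. On day 7 edgeR called 0 (percent called 0), with 898 at an unadjusted p under 0.05, and DESeq2 called 13. The member with the smallest p was Il18 on day 4, 1.71-fold higher after mXTX301 (95% interval 1.17 to 2.49, edgeR adjusted p = 0.269). Il18bp was the most tightly bounded, at 0.962-fold (0.733 to 1.26) on day 4 and 0.931-fold (0.710 to 1.22) on day 7. Il18r1 after mXTX301 was 1.05-fold (0.573 to 1.94) the unmasked control level on day 4 and 0.583-fold (0.317 to 1.07) on day 7. Il18rap was at 0.742-fold (0.470 to 1.17) and 1.02-fold (0.644 to 1.60). These intervals do not show that the drugs act alike. The decoy to ligand ratio was 0.568-fold that of the unmasked control on day 4 after mXTX301 (exact permutation adjusted p = 0.0595) and 0.759-fold on day 7 (exact permutation adjusted p = 0.171). The day 4 value passed without mXTX301 replicate 1 or unmasked control replicate 3 (adjusted p = 0.0357 for each), at log2 differences of -0.94 and -0.96. The chain ratio differed by -0.35 on day 4 and 0.68 on day 7 on the log2 scale (exact permutation adjusted p = 0.587 and 0.208). The day 7 value was 1.03 without unmasked control replicate 1 (adjusted p = 0.0476).

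From day 4 to day 7 edgeR and DESeq2 called 0 of 4 members in vehicle tumours, none of which passed an unadjusted p under 0.05 in edgeR, and edgeR called 0.0388% of genes in either direction. After the unmasked control, 3 of 4 members were called higher on day 7 than on day 4, against 14.4% of genes. Il18r1 rose 2.92-fold (log2 1.55, SE 0.44, edgeR adjusted p = 0.0124), Il18 1.80-fold (adjusted p = 0.0212) and Il18bp 1.52-fold (adjusted p = 0.0234), with libraries of both days overlapping. Il18rap was at 0.987-fold (95% interval 0.626 to 1.56). The Il18r1 call held without any 1 library. The Il18 call was lost without replicate 4 of day 4 or replicate 4 or 5 of day 7 (log2 0.73, 0.79 and 0.73). The Il18bp call was lost without replicate 3 or 4 of day 4 or replicate 2, 4 or 5 of day 7 (log2 0.47 to 0.57, adjusted p up to 0.0916). Without the 12 skin-rich libraries none of the 3 was called (log2 0.47, 1.20 and 0.47 for Il18, Il18r1 and Il18bp).

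After mXTX301, edgeR called 0 of 4 members higher on day 7 than on day 4, against 7.88% of genes. Il18bp came nearest, at 1.47-fold (95% interval 1.12 to 1.93, edgeR adjusted p = 0.0512), was the only member at an unadjusted p under 0.05, and was called by DESeq2 (adjusted p = 0.0307). Without replicate 3 of day 4, the library with the highest Il18r1 and Il18bp levels of its group, both genes were called, at log2 1.33 (adjusted p = 0.0207) and 0.71 (adjusted p = 0.0121). Il18bp was also called without replicate 2 of day 7 (log2 0.65, adjusted p = 0.0252). The change of the drug effect between days, tested as an interaction, was called by edgeR for 0 of 4 members for either drug (4.99% of genes for mXTX301 and 5.15% for the unmasked control). Il18bp was again the only member at an unadjusted p under 0.05 and was called by DESeq2 for both drugs. Its edgeR estimates were 0.84 (adjusted p = 0.0689) and 0.88 (edgeR adjusted p = 0.0529) on the log2 scale. The mXTX301 estimate passed without replicate 3 of day 4 or replicate 2 of day 7 (log2 1.00 and 0.94). The unmasked control estimate passed in turn without 5 libraries, which were replicate 5 of either vehicle group, replicate 2 of day 4 and replicates 1 and 3 of day 7 (log2 0.88 to 1.01).

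Within groups, tumours with more T cell transcripts had more Il18r1 and more Il18bp, and tumours with more macrophage transcripts had more Il18. These relations were computed over the 30 libraries on log2 CPM with each group mean removed, with 100000 permutations within groups and adjustment over 30 relations. Il18r1 and the mean level of 10 T cell markers had r = 0.85 and rho = 0.82 (permutation adjusted p = 0.0003 for both), and r = 0.78 without the 2 libraries farthest from the median of Il18r1. In the 18 libraries that were not skin-rich, r was 0.84 (permutation adjusted p = 0.0088). Il18bp and the T cell markers had r = 0.82 and rho = 0.75 (permutation adjusted p = 0.0004 and 0.0017), r = 0.78 without 2 libraries, and r = 0.94 in the 18 libraries (adjusted p = 0.0075). Il18 and 9 macrophage markers had r = 0.80 and rho = 0.67 (permutation adjusted p = 0.0004 and 0.0027). This fell to 0.67 without 2 libraries and was 0.84 in the 18 libraries, where it missed the threshold (adjusted p = 0.0549). Weaker relations were also called by r. Il18bp followed Ifng (0.51) and the NK cell (0.51), macrophage (0.56) and conventional dendritic cell (0.52) markers. Il18r1 followed macrophage markers (0.55), and Il18 followed Ifng (0.47) and Il18bp (0.56). Their permutation adjusted p of r ran from 0.0091 to 0.0392, and none was called in the 18 libraries. By rho, Il18bp with macrophage and dendritic cell markers and Il18 with Il18bp missed the threshold.

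Il18 followed conventional dendritic cell markers with r = 0.70 and rho = 0.61 (permutation adjusted p = 0.0024 and 0.0061; r = 0.56 without 2 libraries), and in the 18 libraries r was 0.76 and missed the threshold (adjusted p = 0.0906). It did not follow the skin markers, although skin epithelium is a known source of the ligand (r = 0.08, rho = -0.0033, permutation adjusted p = 0.746 and 0.988). In the 18 libraries without skin r was -0.07. Il18r1 followed NK cell markers with r = 0.73 and rho = 0.71 (permutation adjusted p = 0.0013 and 0.0017; r = 0.63 without 2 libraries), and in the 18 libraries r was 0.72 (adjusted p = 0.0543). Il18r1 and Il18bp followed each other with r = 0.68 and rho = 0.57 (permutation adjusted p = 0.0024 and 0.0159; r = 0.56 without 2 libraries), and in the 18 libraries r was 0.70 and missed the threshold (adjusted p = 0.0906).

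Il18rap followed neither its partner chain nor any of the 5 cell marker levels examined with it. With Il18r1, r was 0.11 and rho 0.14 (permutation adjusted p = 0.731 and 0.655), and with T cell markers r was 0.09 and rho 0.09 (permutation adjusted p = 0.731 and 0.751). With NK cell markers r was 0.09 and rho 0.10, and with Ifng r was -0.21 and rho -0.23 (permutation adjusted p of r 0.743 and 0.573). The spread of Il18rap within groups was not small: in the vehicle tumours of day 7 it ran from 6.11 to 26.6 CPM.

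**Figure D4:**
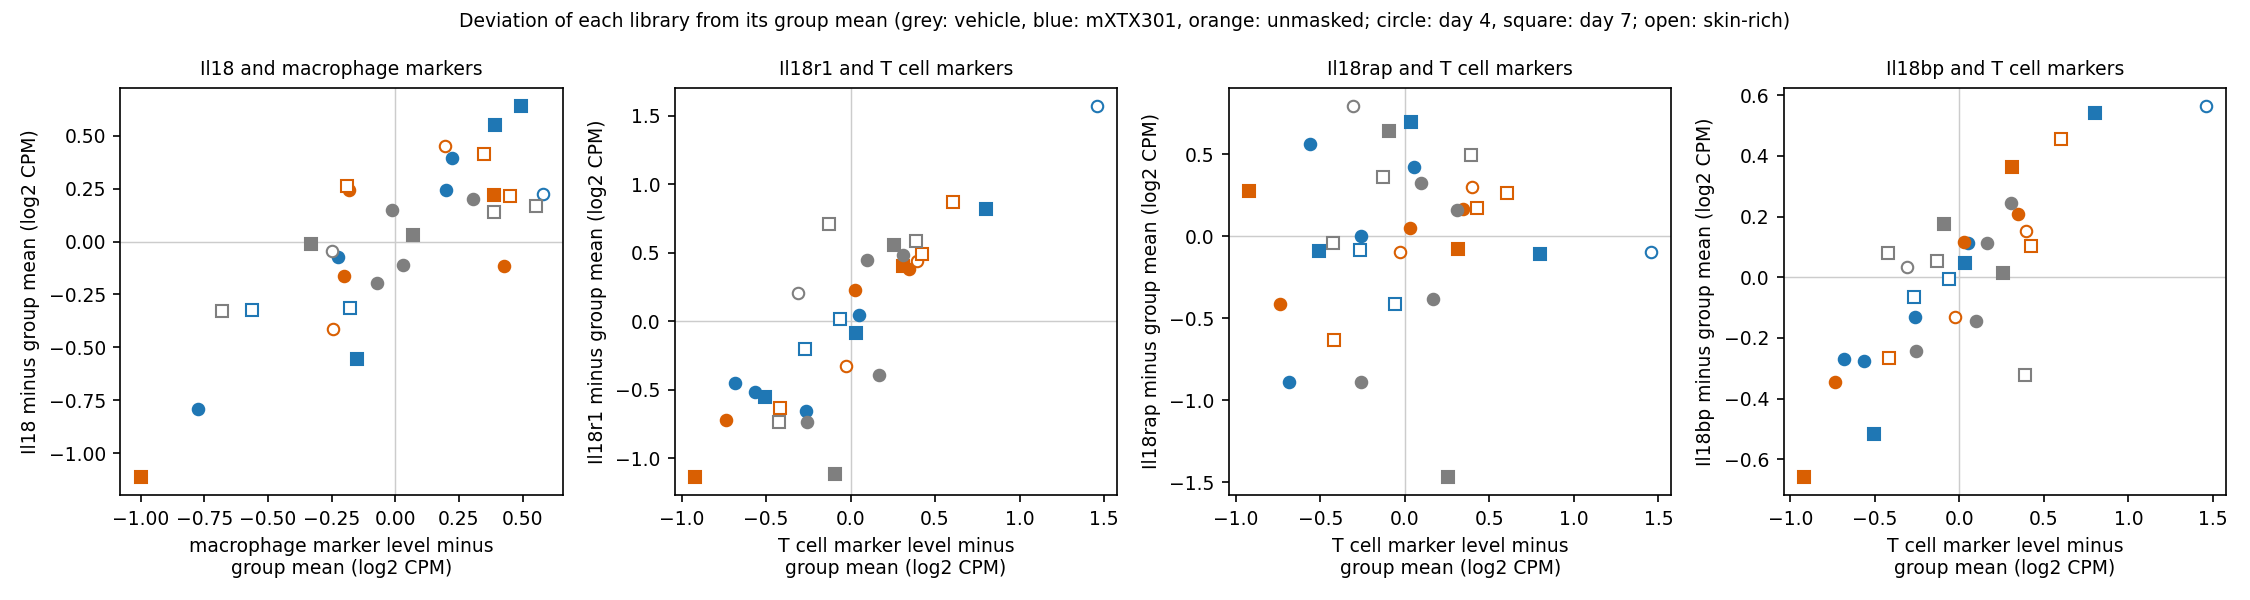
Each point is 1 library, plotted as its deviation from the group mean in log2 CPM: a marker level on the x axis against Il18, Il18r1, Il18rap or Il18bp on the y axis; colours give treatment, shapes the day, and open points skin-rich libraries. Il18r1 and Il18bp rise with the T cell level (r = 0.85 and 0.82), Il18 rises with the macrophage level (r = 0.80), and Il18rap shows no trend (r = 0.09).

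The genes whose deviations were most like each member differed between members. They were the 5 genes of highest r among the 12475 ranked, all averaging 1 CPM or more, and the values share libraries and depth. For Il18r1 they were Ubash3a, a regulator of T cell receptor signalling (r = 0.91), Tbc1d10c (0.89), the T cell receptor kinases Zap70 (0.88) and Lck (0.87), and the chemokine receptor Cxcr6 (0.87). Lck is also 1 of the 10 T cell markers used above. For Il18bp they were Gpr157 (0.88), Tbc1d9 (0.86), the lymphocyte GTPase Gimap5 (0.85), the interleukin-7 receptor gene Il7r (0.85) and Stra6l (0.84). For Il18 they were complement factor B, Cfb (0.85), Pik3r6 (0.84), Rnf130 (0.84), the inhibitory myeloid receptor Pirb (0.83) and Cd38 (0.83).

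For Il18rap the closest gene was Il1rl1, 2 places before it in the chromosome 1 receptor cluster (r = 0.88, rho = 0.87, 0.80 without 2 libraries, 0.91 in the 18 libraries that were not skin-rich). Next came Prl2c2, a prolactin family hormone (0.86), the transporter Slco4a1 (0.82), Acap1 (0.80) and Dynap (0.79). Il1rl1 was a strong transcript, at 35.1 CPM on average in vehicle tumours of day 4 and 32.6 CPM on day 7. It was called higher in all 4 drug contrasts, by 1.30 and 1.21 after mXTX301 and by 1.77 and 1.43 after the unmasked control on the log2 scale, on days 4 and 7. Il18r1 lies between these genes on the chromosome, and its own r with Il18rap was the 0.11 given above.

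The machinery that matures and releases IL-18 rose in most of its members. Of 11 tested genes, 9 were called higher and 0 lower after mXTX301 on day 4, and 9 and 1 on day 7. After the unmasked control the counts were 6 and 1 on day 4 and 9 and 1 on day 7. The share of all genes called higher was 16.2%, 25.7%, 11.6% and 23.2% in the same order. Myeloid markers moved as well: 5, 9, 1 and 8 of 9 macrophage markers and 2, 3, 5 and 6 of 7 neutrophil markers were called higher, and their part in these values was not tested. Casp1, the protease that cuts the precursor, rose by 0.76 and 1.08 after mXTX301 and by 0.80 and 0.75 after the unmasked control on the log2 scale, on days 4 and 7. Pycard, the adaptor of inflammasomes, rose by 1.54 and 1.89, and by 1.36 and 1.84. The sensor Nlrp1b rose by 2.40 and 3.09, and by 1.29 and 3.32, and Nlrp3 by 2.06 and 2.10 on day 7. The falls were in Casp8 (-0.18 after mXTX301 on day 7, -0.22 and -0.16 after the unmasked control on days 4 and 7), which was not called after mXTX301 on day 4 (-0.12). The median of the list was 0.96, 1.5, 0.50 and 1.59 in the 4 contrasts, in the order mXTX301 day 4, mXTX301 day 7, unmasked control day 4 and unmasked control day 7.

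Signal transduction downstream of the receptor moved little and in both directions. Of 15 genes, 5 rose and 2 fell after mXTX301 on day 4, 7 and 4 on day 7, 4 and 2 after the unmasked control on day 4, and 6 and 3 on day 7. Of all genes, 16.2%, 25.7%, 11.6% and 23.2% were called higher in the same order, and 16%, 22.7%, 10.8% and 21.8% lower. The list medians lay between 0.0060 and 0.087. Irak2, a kinase of the receptor complex, rose the most, by 0.87, 1.69, 0.81 and 1.75 in the same order of contrasts. The ubiquitin ligase Traf6 and its partner Tab2 rose by 0.28 to 0.41. The adaptor Myd88 fell in all 4 contrasts, by -0.28, -0.37, -0.29 and -0.32.

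Among 5 inhibitors of this pathway, 2 rose in every contrast, where 16.2%, 25.7%, 11.6% and 23.2% of all genes were called higher. Irak3, which blocks the kinase complex, rose by 1.47, 2.42, 1.12 and 2.43, and the ubiquitin-editing enzyme Tnfaip3 by 0.51, 0.76, 0.37 and 1.01. Sigirr, an inhibitory receptor of the same family, was not called in any contrast (-0.17, 0.03, -0.17 and -0.03), nor was Tollip. Nfkbia was called only after the unmasked control on day 4, at -0.27.

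Of the 5 other receptors of the family, Il1rl1 was called in all 4 contrasts, and Il1rl2 in all but the unmasked control on day 4. Il1r1 and its decoy Il1r2 were called on day 7 only, by 1.72 and 0.89 after mXTX301 and by 1.32 and 0.99 after the unmasked control. Il1rap, the shared accessory chain, stayed between -0.09 and 0.11 without a call. Of the 9 other cytokines of the family, 4 passed the low-count filter. Il1a rose by 1.93, 3.80, 2.32 and 3.96, and the receptor antagonist Il1rn by 1.08, 2.52, 1.35 and 2.46. Il1b and Il33 were called on day 7 only, by 2.51 and 1.28 after mXTX301 and by 1.85 and 0.98 after the unmasked control.

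Several genes of the IL-12 arm rose in each contrast. Of 8 genes, 6 were called higher after mXTX301 on day 4, 7 on day 7, 4 after the unmasked control on day 4 and 7 on day 7. The share of all genes called higher was 16.2%, 25.7%, 11.6% and 23.2% in the same order. Il12rb2, the inducible IL-12 receptor chain, rose by 3.43, 3.62, 3.13 and 4.34, beside 3.40, 3.80, 3.32 and 4.58 for Il18r1. Il12rb1, the constitutive chain, rose by 1.41, 2.06, 1.39 and 1.91. Tbx21, the T helper 1 transcription factor, rose by 2.43, 2.90, 2.58 and 3.12. Lymphocyte markers moved as well, with median log2 rises of 2.11, 3.07, 2.25 and 3.54 for T cells. For NK cells the medians were 1.64, 2.15, 1.47 and 2.51. Their part in the values of these genes was not tested. Il12a was the 1 gene called lower, on day 7 after both drugs (-4.58 and -4.13); its vehicle level there was 1.47 ± 1.71 CPM (SD, n = 5) and its vehicle level on day 4 was 0.119 CPM.

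Ifng, the main joint output of IL-12 and IL-18, rose from 0.251 CPM in vehicle tumours on day 4 and 0.254 CPM on day 7 by 4.36, 5.04, 4.45 and 4.55 on the log2 scale. Of the 12 output genes, 7, 6, 5 and 8 were called higher in the 4 contrasts and 2, 1, 1 and 0 lower. The shares of all genes were 16.2%, 25.7%, 11.6% and 23.2% higher and 16%, 22.7%, 10.8% and 21.8% lower. Fasl rose by 2.24, 2.95, 2.23 and 3.34, and Tnf by 1.11, 1.84, 0.93 and 2.03. What part T cell and NK cell content has in the output genes was not tested. Gzmb, a cytotoxic protease, was called on day 4 only, by 1.34 and 1.41, and stood at -0.18 and 0.03 on day 7. Gadd45b, an early IL-12 and IL-18 response gene in T cells, was called lower in 3 contrasts, by -0.46, -0.29 and -0.34.

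**Figure D5:**
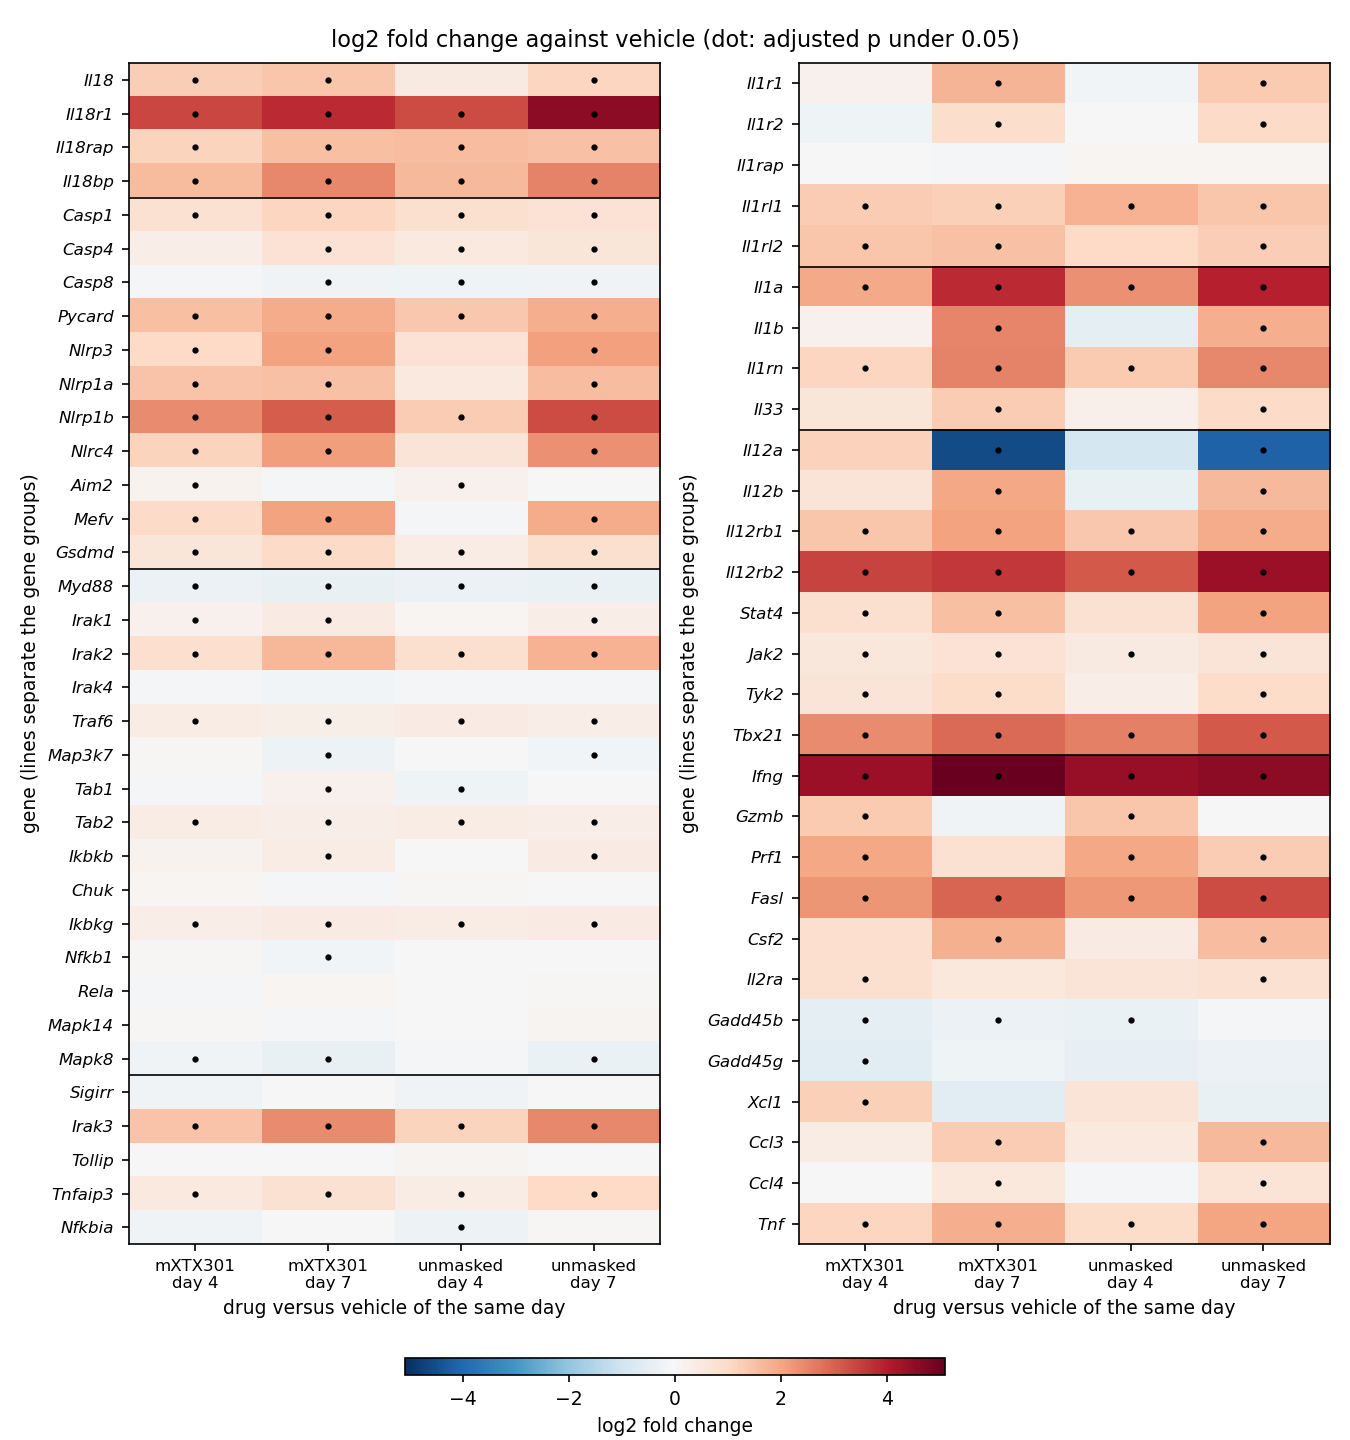
Log2 fold change against vehicle of the same day, as colour, for the 4 members (top left) and the tested genes of the pathway lists, with dots for an adjusted p under 0.05; lines separate gene groups. Il18r1, Il12rb2 and Ifng have log2 rises above 3 in all 4 columns, while most receptor signalling genes stay near white.

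Some reads could belong to neighbours. Il18 overlaps Bco2 and Tex12, and Il18bp overlaps Numa1, all on the opposite strand, and whether counting used strand is not given in the sources used here. No exon base is shared between Il18 and either neighbour, and 80 exon bases are shared between Il18bp and Numa1. Numa1 changed by at most 0.23 on the log2 scale against vehicle. Bco2, at 0.910 to 2.09 CPM on average per group, fell by 0.80 after the unmasked control on day 4, the contrast in which Il18 was not called, and rose by 0.74 after mXTX301 on day 7. The part of overlapping transcripts in the Il18 values was not tested.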

How the data were processed

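The authors deposited a table of raw counts per gene for the 30 libraries and a table of log2 values, and both were read here. Per the labels, RNA was polyadenylated and libraries were made with an Illumina kit. The submitters' processing notes name HTSeq 0.11.1 and STAR 2.7.10a, edgeR 3.34.0, R 4.1.0, cutadapt, FastQC 0.11.9 and mm10, without settings or strand. The deposited log2 values of 14877 genes matched log2 CPM recomputed from the counts within 5.0e-05 and were not tested. Of 24557 entries, 5 repeated symbols were dropped.

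Here, R 4.3.3 and edgeR 4.0.16 (TMM, filterByExpr, robust quasi-likelihood, 1 mean per group, 24 residual degrees of freedom) were fitted to all libraries. The common biological coefficient of variation was 27.3%. The scripts were tested on simulated data. Ratios were tested by exact permutation (smallest p 0.00794) and correlations on log2 CPM with a prior count of 2. Marker and pathway levels are the mean log2 CPM of the tested list members. The members and lists were chosen with earlier results of these data known; 1 listed gene is not reported here. Named pathway genes were up to 3 called members with the smallest p per list and contrast (all in lists of up to 5), plus Ifng, Casp1, Il12rb1, Il12rb2, Tbx21 and Sigirr; their values are given across contrasts. Myd88, Il12a, Il33, Gzmb and the cited overlapping genes were chosen after their values were seen. Alternatives were RLE scaling, no filter, DESeq2 1.42.0, only the groups compared, a replicate block, a skin covariate, leaving out skin-rich libraries and leaving out each library.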

Additional observations from a re-analysis of the deposited data

Results flagged for a closer look

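In 4 of 36 groups of values, 1 of 5 libraries stood apart, with a gap to its neighbour of more than 0.71 of the group's range; chance alone gives such a gap in about 1 group in 20. Il18 in replicate 1 of the unmasked control on day 7 was at 1.30 CPM, below the others by 0.805 of the range. Its Il18r1 level was also the lowest of the group, and its T cell, macrophage and dendritic cell marker levels lay 0.92, 1.00 and 1.16 below the group means on the log2 scale. The same tumour had the highest receptor chain ratio of its group, 10.3, by 0.828 of the range. Il18r1 in replicate 3 of mXTX301 on day 4, a skin-rich library, was at 13.8 CPM, above the others by 0.830 of the range. Its T cell and NK cell marker levels were 1.46 and 1.2 above the group means. Il18rap in replicate 5 of mXTX301 on day 7 was at 86.1 CPM, by 0.779 of the range, with T cell and NK cell marker levels within 0.11 of the group means. No other library was set apart by this measure among the 4 members, both ratios and 6 groups examined.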

How the results depend on the processing

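Among the 16 member changes against vehicle, 126 of 128 values under another scaling, filter, tool, design or set of libraries kept their direction and call, as did all 160 with 1 library left out. The exceptions were Il18 after the unmasked control on day 7 without the skin-rich libraries (log2 0.68, adjusted p = 0.312) and without the 8 libraries of highest skin level, a set chosen after seeing the data (0.79, adjusted p = 0.0611). Contrasts between drugs and days were less stable: of 224 such values 6 lost a call, 7 gained one and 7 changed sign, and of 360 with 1 library left out the numbers were 8, 10 and 26. Except where fewer samples limit the test, the causes were not tested. Il18 at 64 to 297 reads and Il18r1 at 15 to 71 reads in vehicle libraries are limited by depth.

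The only skin-rich library of mXTX301 on day 4 was replicate 3. Without that library alone, mXTX301 minus the unmasked control was -0.58 for Il18r1 on day 4. Without all 12 skin-rich libraries this difference was -0.56, and that of Il18bp on day 7 was 0.064. The day 7 minus day 4 values were 1.44 (Il18r1) and 0.76 (Il18bp) after mXTX301 and 0.47 (Il18), 1.20 (Il18r1), 0.11 (Il18rap) and 0.47 (Il18bp) after the unmasked control, and the Il18rap interaction of the latter was 0.043. The smaller groups also left no ratio past the exact test: the decoy ratio differed by 0.84 (mXTX301, day 7), 1.24 and 1.72 (unmasked control, days 4 and 7), and the chain ratio by -1.37 and -1.97 (mXTX301), -1.47 and -2.29 (unmasked control) and 0.098 between drugs on day 4. The correlations of Il18r1 with Il18rap and of Il18 with skin became -0.12 and -0.073. Of the called correlations in the report, those of Il18r1 and Il18bp with T cell markers kept their call there and the others lost it.

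Without the 8 libraries the drug contrast of Il18r1 on day 4 was -0.47. The day contrasts were 1.43 (Il18r1) and 0.75 (Il18bp) after mXTX301 and 0.75 (Il18), 0.16 (Il18rap) and 0.69 (Il18bp) after the unmasked control. With only the groups compared, Il18bp in the last contrast was 0.58. DESeq2 called the Il18bp day contrast after mXTX301 (0.54) and both Il18bp interactions (0.83 and 0.88).

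Libraries sharing a number showed little joint deviation over the 2000 most variable genes (mean r 0.0436, lowest -0.650, beside a mean of -0.0044 for other libraries). For 9 libraries the most alike library of another group carried the same number. The check covered those genes only, so it does not show that the numbers carry no pairing. A replicate block changed no member call and turned 1 sign, Il18rap between drugs on day 7 (-0.0098); it moved the vehicle day contrast from 6 called genes to 86.

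Leaving out each library gave log2 ranges of -0.14 to 0.27 (Il18rap, vehicle days), 0.41 to 1.33 and 0.38 to 0.71 (Il18r1 and Il18bp, mXTX301 days), and 0.73 to 1.02, -0.13 to 0.085 and 0.47 to 0.71 (Il18, Il18rap and Il18bp, unmasked control days). Between drugs they were -0.58 to 0.24 (Il18r1) and -0.23 to 0.0055 (Il18bp) on day 4, and -0.19 to 0.12 (Il18rap) and -0.26 to 0.017 (Il18bp) on day 7. Interactions ran from -0.037 to 0.26 (Il18) and 0.67 to 1.00 (Il18bp) for mXTX301 and from -0.31 to 0.095 (Il18rap) and 0.75 to 1.01 (Il18bp) for the unmasked control. Decoy ratio ranges were 0.27 to 0.57 (mXTX301, day 4) and -0.96 to -0.65 (between drugs, day 4), and chain ratio ranges -2.71 to -1.77 (mXTX301, day 7), -0.62 to 0.067 and 0.49 to 1.03 (between drugs, days 4 and 7).

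Counts of called genes moved further. Without the skin-rich libraries the unmasked control went from 3465 to 1618 on day 4, from 6973 to 2415 on day 7 and from 4009 to 0 between days (1579 without the 8). The 6 genes of the vehicle day contrast became 0 under RLE scaling, no filter or only the groups compared, 14 with the skin covariate, 187 and 461 without the 12 or 8 libraries, and 618 in DESeq2. The mXTX301 interaction went from 772 to 1280, 1383, 514 and 1492 (without the 12, without the 8, only the groups compared, DESeq2), and that of the unmasked control from 798 to 0, 125, 287 and 1690, and to 473 without a filter. Between drugs on day 4, 0 became 194 with only the groups compared and 24 in DESeq2, and on day 7 it became 13 in DESeq2.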
